A study of Bos taurus with 46 samples.

Results

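Circulating leukocytes of heifers pregnant by artificial insemination (AI) were compared between day 55 (D55) and day 105 (D105) of gestation. The AI heifers were taken from the sample label for the group of fetuses, and the sample titles give the heifer number and the day. Each of the 8 gave 1 RNA sequencing library per day. These 16 libraries were all used, of 46 in the series, and 8 of its 23 heifers. The study set AI pregnancies as controls for pregnancies with embryos produced in vitro (IVP), carrying fetuses of normal size (IVP-Normal, 6 heifers) or with large offspring syndrome (IVP-LOS, 9 heifers). All females were Angus crossbred heifers, brought into estrus with progesterone inserts, prostaglandin and gonadotropin releasing hormone, and the fetuses had Brahman (Bos taurus indicus) fathers. Blood was drawn from the tail vein into EDTA, and RNA came from the buffy coat after red cell lysis, so every leukocyte class of the coat was sequenced together. No library of a non-pregnant heifer was used here. In the AI group the D55 libraries all belong to a set labelled New and the D105 libraries to a set labelled BACKUP. The study describes work spread over several seasons, and for some heifers of the series it gives winter for D55 and summer for D105. Day of gestation, set name, season and age of the heifer therefore cannot be told apart within the AI group.

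Blood leukocytes comprise granulocytes (neutrophils, eosinophils and basophils), monocytes, dendritic cells, B cells, T cells and natural killer (NK) cells. Cattle differ from many mammals in the high share of gamma-delta T cells among their lymphocytes, above all in young animals. Pregnancy in ruminants is known to raise interferon-stimulated transcripts of maternal leukocytes around the time when the conceptus secretes interferon tau. In women, pregnancy is known for a higher share of neutrophils in blood. In bulk RNA, fewer cells of a type and less RNA per cell of that type cannot be told apart.

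Reads on genes ranged from 21791213 to 23841695 per library on D55 and from 22101799 to 23366657 on D105. Reads on no annotated gene made up 22.9% ± 1.43 (SD, n = 8) of all reads in the table on D55 and 23.4% ± 1.57 on D105, a difference of 0.465 percentage points (exact paired permutation test, two-sided, p = 0.453). The leukocyte label held on both days, with PTPRC, the pan-leukocyte antigen CD45, at 1893 to 2306 CPM (reads scaled to a common library size) on D55 and 1932 to 2420 CPM on D105. CD3E of T cells, at 391 to 704 CPM and 361 to 647 CPM, and CD79A of B cells, at 472 to 824 CPM and 261 to 787 CPM, were present in every library. The red cell list, HBB included, summed to 46.1 to 190 CPM on D55 and 47.1 to 137 CPM on D105.

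Between D55 and D105, 2603 of 15248 genes tested changed in the AI heifers, or 17.1%. Expression was higher on D105 for 1552 genes (10.2%) and lower for 1051 (6.89%). The counts of each gene list below are to be read against these shares of all genes tested. A gene was called at a false discovery rate (FDR) of at most 0.05 in edgeR's quasi-likelihood test with the heifer as a block, so that each change was measured within heifers. Rises were larger than falls: the median fold change on the log2 scale was 0.67 among genes called higher and -0.38 among genes called lower, against -0.02 over all genes tested. At least 2-fold rises numbered 523 (3.43%) and at least 2-fold falls 41 (0.269%). The 94 genes that rose at least 8-fold had no counterpart among the falls, of which 3 reached 4-fold. For 281 genes (1.84%) every D105 library lay above every D55 library, and for 86 genes (0.564%) every D105 library lay below. The split between rises and falls depended on the scaling of the libraries. With upper-quartile scaling in place of the trimmed mean of M values (TMM), 1383 genes were higher and 1620 lower, so that rises made up 46.1% of the calls and not 59.6%. Unless stated, levels are CPM after TMM scaling, and they are compared between days for 1 gene and not between genes.

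Genes of neutrophils, the phagocytes that leave the blood first in acute inflammation, had the highest median change of the blood cell class lists. The list of neutrophil surface and secreted proteins had 18 genes, of which 13 were tested, and all 13 rose, with a median log2 fold change of 3.03. Of these 13, 9 did not overlap between the days, and 3 averaged under 0.436 CPM on D55, the level of 10 reads, and passed the expression filter through D105. CXCR2, a receptor for interleukin-8 that guides neutrophils, ran from 7.33 to 43.9 CPM (median 12.9) on D55 and from 101.9 to 644 CPM (median 347) on D105. The days did not overlap, and the log2 fold change was 4.37 ± 0.43 (SE; FDR 0.00015). CXCR1, the sister receptor, went from 1.05 to 12.3 CPM (median 2.73) to 30.6 to 354 CPM (median 135), with a log2 fold change of 5.35 ± 0.54 (FDR 0.000158). The pair are close paralogs, and reads that fit both could have been discarded or counted for either.

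Among the secreted proteins, MMP9, the gelatinase B stored in neutrophil granules, rose from 0.126 to 1.06 CPM (median 0.27) on D55 to 3.89 to 27.5 CPM (median 8.62) on D105 (log2 fold change 4.32 ± 0.41, FDR 0.000133). PROK2, a small chemoattractant made by neutrophils, rose by 4.06 ± 0.38 (FDR 0.000133), with D55 libraries between 0.172 and 0.896 CPM and D105 libraries between 2.00 and 19.6 CPM. The days were separate for both genes, at low D55 levels. TNFAIP6, a hyaluronan-binding protein induced in inflammation, rose by 3.03 ± 0.43 (FDR 0.000831). On the cell surface, VNN2, a surface pantetheinase of neutrophils, rose by 2.36 ± 0.24 (FDR 0.000158) and TREM1, a receptor that amplifies neutrophil and monocyte activation, by 1.30 ± 0.18 (FDR 0.000654).

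In the list of neutrophil granule proteins and calgranulins, 11 of 21 genes were tested, 9 rose, none fell and the median log2 fold change was 1.17. Here too, 3 of those tested averaged under 0.436 CPM on D55. S100A9, the larger subunit of calprotectin, ran from 93.2 to 251 CPM (median 157) on D55 and from 262 to 1084 CPM (median 353) on D105, without overlap (log2 fold change 1.47 ± 0.26, FDR 0.00319). Its partner S100A8 rose by 0.99 ± 0.28 (FDR 0.031) in 7 of 8 heifers, and its FDR reached 0.0669 when 1 heifer was left out, with the call lost without 517, 546 or 609. S100A12, the third calgranulin, rose by 0.94 ± 0.24 (FDR 0.0205). Primary granule genes, which are transcribed in the marrow and largely silent in mature cells, were scarce throughout. MPO, the myeloperoxidase gene, had 0.0842 to 0.598 CPM on D55 and 0.352 to 7.48 CPM on D105 (log2 fold change 2.25 ± 0.29, FDR 0.000443). It was tested in 6 of the 8 fits with a heifer left out, and called in each of those. LTF, for lactoferrin of the secondary granules, had 0.0425 to 0.427 CPM on D55 and 0.511 to 2.31 CPM on D105 (3.05 ± 0.30, FDR 0.00015). LCN2, another secondary granule gene, did not pass the test, at 12.8 to 45.2 CPM and 11.3 to 39.6 CPM (-0.31 ± 0.15, FDR 0.174). Without heifer 533 it was called lower (FDR 0.0354).

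**Figure D1:**
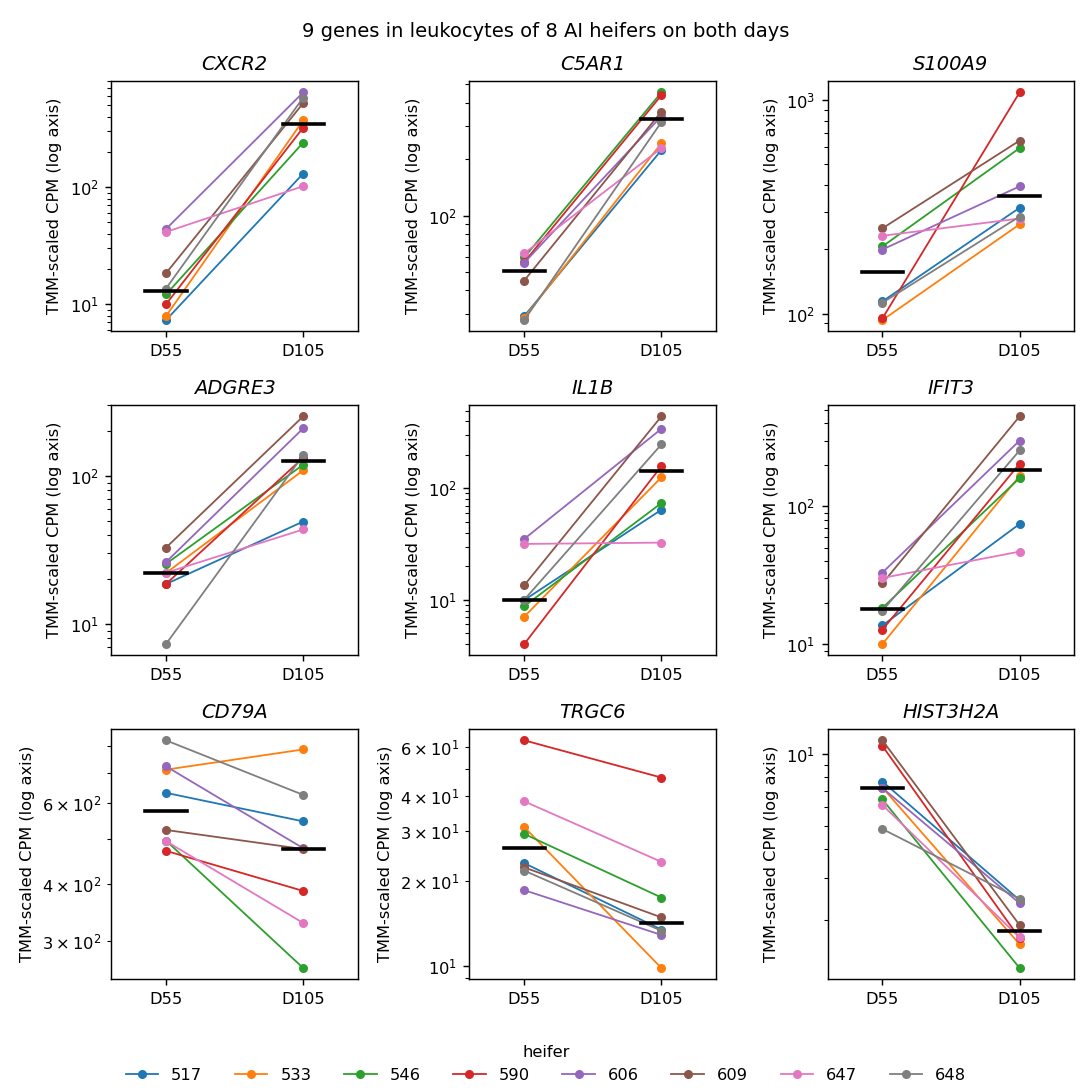
TMM-scaled CPM (log axis) of 9 genes in the D55 and D105 libraries of the 8 AI heifers, 1 line per heifer, with the median of each day as a black bar. CXCR2, C5AR1, S100A9, ADGRE3, IFIT3 and HIST3H2A do not overlap between the days, and heifer 647 has the flattest CXCR2 line, from the second highest D55 value to the lowest D105 value, 101.9 CPM.

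Eosinophils, granulocytes of parasite defence and allergy, gave 5 of 8 tested genes called higher and none lower (median log2 fold change 1.15; 12 genes were listed). ADGRE3, an adhesion receptor of granulocytes, ran from 7.33 to 32.8 CPM (median 22.2) on D55 and from 43.5 to 252 CPM (median 125.9) on D105, without overlap (2.48 ± 0.30, FDR 0.000321). SIGLEC8, an inhibitory lectin of eosinophils, likewise did not overlap, with 8.51 to 24.7 CPM and 27.1 to 94.4 CPM (1.80 ± 0.25, FDR 0.000713). ALOX15, the 15-lipoxygenase of eosinophils, rose by 2.90 ± 0.47 (FDR 0.00179) in 8 of 8 heifers. The receptors most used to define the class did not pass the test. IL5RA, for the interleukin-5 receptor, had a median of 10.1 CPM on D55 and 13.8 CPM on D105 (0.53 ± 0.26, FDR 0.184), and CCR3, the eotaxin receptor, 18.3 CPM and 18.6 CPM (0.10 ± 0.27, FDR 0.825).

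Of the basophil and mast cell list, 5 of 6 genes were tested and 3 rose. MS4A2, the beta chain of the high-affinity IgE receptor, was at most 0.252 CPM on D55 and lay between 0.618 and 4.57 CPM on D105 (5.01 ± 0.48, FDR 0.000133). GATA2, a transcription factor of basophils and progenitors, lay between 0.0408 and 0.17 CPM on D55 and between 0.442 and 3.003 CPM on D105 (4.18 ± 0.31, FDR 7.87e-05). Both were separate between the days, but they and the third gene averaged under 0.436 CPM on D55 and passed the expression filter through D105. Their fitted folds rest on few reads. The count of rises was 3 without the filter as well. It was 2 without 533, 546, 590, 606, 647 or 648, without the heifer block and with all 46 libraries in the fit. The summed level of the list had medians of 20.1 CPM on D55 and 23.4 CPM on D105. FCER1A, the alpha chain of the IgE receptor and the most abundant gene tested in the list, had medians of 7.42 CPM and 6.49 CPM (-0.14 ± 0.13, FDR 0.493).

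Monocyte genes moved in both directions, with 4 of 14 tested genes higher, 1 lower and a median of 0.29. CD14, the lipopolysaccharide co-receptor, rose from a median of 49.2 CPM (29.6 to 127.2) to 100.4 CPM (63.0 to 245), in 7 of 8 heifers (1.07 ± 0.20, FDR 0.00397). CD163, the haemoglobin scavenger receptor, rose by 1.04 ± 0.26 (FDR 0.0188) and CD68, a lysosomal protein of phagocytes, by 1.11 ± 0.15 (FDR 0.000708). CX3CR1, the fractalkine receptor of patrolling monocytes and cytotoxic lymphocytes, fell in 8 of 8 heifers, from 258 to 587 CPM (median 366) to 137 to 442 CPM (median 233) (-0.65 ± 0.07, FDR 0.000227). For each of these the days overlapped. CSF1R, which defines the lineage, had medians of 206 CPM and 242 CPM and was not called (0.21 ± 0.15, FDR 0.378). Without the heifer block, 2 monocyte genes were higher and none lower.

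Dendritic cell genes were also divided, with 3 of 9 tested genes higher and 2 lower (1 lower without any heifer other than 517 or 590). XCR1, the chemokine receptor of cross-presenting dendritic cells, rose from 2.23 to 4.29 CPM (median 2.92) to 3.96 to 8.39 CPM (median 7.27) in 7 of 8 heifers (1.22 ± 0.18, FDR 0.001). IL3RA, the interleukin-3 receptor alpha chain shared by plasmacytoid dendritic cells and basophils, rose by 1.61 ± 0.24 (FDR 0.00114). TCF4, a transcription factor of plasmacytoid dendritic cells that B cells also express, fell by 0.36 on the log2 scale (FDR 0.0212), in 8 of 8 heifers.

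B cell genes were called in 1 direction: 7 of 16 tested genes fell, none rose, and the median log2 fold change was -0.33. All 16 had a fitted change below 0, and the summed level of the list fell in 7 of 8 heifers, from 4030 to 6339 CPM to 2423 to 5914 CPM. TNFRSF13C, the receptor for the survival factor BAFF, fell in 8 of 8 heifers from a median of 101.5 CPM (58.4 to 194) to 70.1 CPM (28.9 to 118.96), with a log2 fold change of -0.63 ± 0.13 (FDR 0.00826). FCER2, the low-affinity IgE receptor, and CR2, the complement receptor of B cells, fell by 0.32 (FDR 0.0105) and 0.34 (FDR 0.0198), each in 8 of 8 heifers. MS4A1, for CD20, had medians of 1032 CPM and 863 CPM and was not called (-0.27 ± 0.10, FDR 0.0877). CD79A was called (-0.37 ± 0.10, FDR 0.0291), but the FDR reached 0.0719 with 1 heifer left out, with the call lost without 546, 606, 647 or 648. The B cell count was the least stable of the class lists: 4 genes were called without heifer 546, 647 or 648, 3 without 606, 11 with upper-quartile scaling and none without the heifer block.

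T cell genes were mostly not called. Of 20 tested genes 4 rose and none fell, and the median was 0.03, with CD3E at medians of 485 CPM and 489 CPM (0.01 ± 0.07, FDR 0.936) and CD8A at 87.3 CPM and 80.8 CPM (-0.09 ± 0.07, FDR 0.417). LEF1, a transcription factor of naive T cells, rose in 8 of 8 heifers from 218 to 311 CPM (median 254) to 255 to 513 CPM (median 375) (0.52 ± 0.08, FDR 0.00113). CCR7, the lymph node homing receptor, rose by 0.67 ± 0.15 (FDR 0.0104), the co-stimulatory receptor CD28 by 0.48 ± 0.07 (FDR 0.00133) and the co-receptor CD4 by 0.38 ± 0.09 (FDR 0.0154). The days overlapped for all 4. In the list of regulatory and inhibitory T cell genes, 5 of 18 rose and none fell. IL2RA, the interleukin-2 receptor alpha chain carried by regulatory and activated T cells, rose from a median of 24.9 CPM to 59.4 CPM (1.06 ± 0.16, FDR 0.00115), and CTLA4, an inhibitory receptor, from 7.76 CPM to 13.1 CPM (0.78 ± 0.15, FDR 0.00541). FOXP3, the transcription factor that defines regulatory T cells, was called at 0.36 ± 0.10 (FDR 0.0256), but its FDR reached 0.0736 with 1 heifer left out, with the call lost without 533, 546, 590, 606 or 647.

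The gamma-delta T cell list, made of WC1 co-receptors and 2 transcription factors, had no call among 7 tested genes (median -0.15). SOX13, one of these factors, had medians of 108.4 CPM and 101.2 CPM (-0.16 ± 0.07, FDR 0.141). By contrast, the 3 constant genes of the T cell receptor gamma chain, a list added after their values were seen, all fell in 8 of 8 heifers. TRGC4 fell from 22.8 to 55.3 CPM (median 36.5) to 15.9 to 30.8 CPM (median 22.5), with a log2 fold change of -0.71 ± 0.12 (FDR 0.00187). TRGC6 fell from 18.5 to 63.1 CPM (median 26.2) to 9.80 to 46.5 CPM (median 14.1) (-0.76 ± 0.12, FDR 0.00122). These genes are similar in sequence, and reads that fit more than 1 of them could have been discarded or counted for another.

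NK and cytotoxic genes gave 1 rise and 3 falls among 21 tested (median -0.24). TBX21, the T-bet factor of NK cells and type 1 helper cells, fell in 8 of 8 heifers from 255 to 475 CPM (median 345) to 158 to 316 CPM (median 254) (-0.51 ± 0.10, FDR 0.00646). NKG7, a granule membrane protein, fell by 0.36 (FDR 0.00976) in 7 of 8 heifers. With all 46 libraries in the fit NKG7 was not called (FDR 0.101). The perforin gene PRF1 and NCR1, the NKp46 receptor that defines NK cells, were not called, with medians of 137 CPM and 122.2 CPM (-0.15 ± 0.11, FDR 0.366) and of 27.4 CPM and 20.4 CPM (-0.35 ± 0.17, FDR 0.171). The single rise was GZMB, for granzyme B, from 0.0408 to 14.4 CPM (median 1.77) to 3.38 to 13.2 CPM (median 9.27) in 7 of 8 heifers (1.85 ± 0.43, FDR 0.0135). Without heifer 546, 6 genes of the list were lower, and without the heifer block none was called.

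Platelets and red cells are not leukocytes, and their genes measure what the buffy coat carried over. Of 11 platelet genes tested 1 rose (9.09%, against 10.2% of all genes tested) and none fell (median -0.33). The chemokine gene PF4 had medians of 215 CPM and 145 CPM (-0.52 ± 0.20, FDR 0.098). Without heifer 606 it was called lower (FDR 0.0357), as were 3 genes of the list in all, and without 533 the list had 1 fall and 2 rises. The rise was P2RY12, the ADP receptor of platelets, which eosinophils and other leukocytes also express. It ran from 1.14 to 4.25 CPM on D55 and from 5.70 to 37.4 CPM on D105, without overlap (3.21 ± 0.43, FDR 0.00058). Among 7 red cell genes 2 fell (1 without 533) and 1 rose. ALAS2, for the first enzyme of haem synthesis in red cell precursors, fell from a median of 9.89 CPM to 4.13 CPM in 8 of 8 heifers (-1.24 ± 0.19, FDR 0.00114), while the globin gene HBB was not called (-0.44 ± 0.17, FDR 0.101). Without heifer 590, HBB was called lower (FDR 0.0416).

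**Figure D2:**
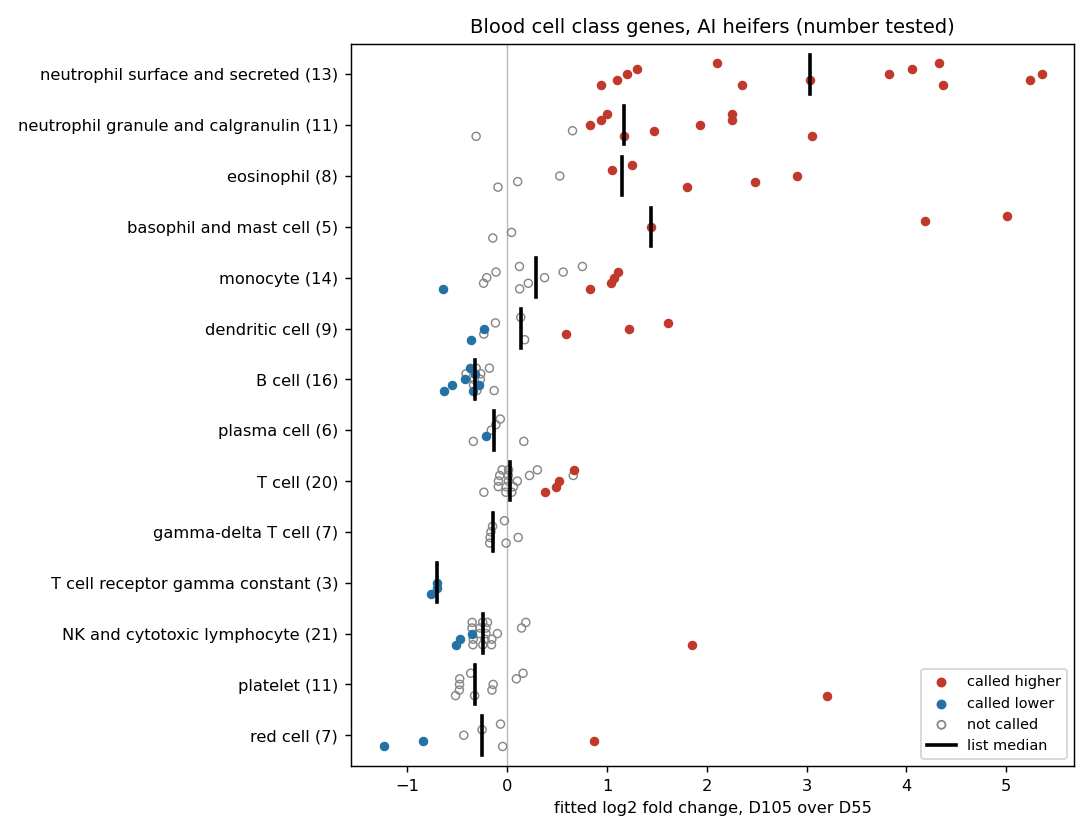
Fitted log2 fold change (D105 over D55) of each tested gene in 14 lists of blood cell class genes, with filled points for genes called at an FDR of at most 0.05 and a black bar at the list median. The number tested is in brackets. Neutrophil surface genes all lie to the right of 0, around a median of 3.03, and B cell genes all lie to the left, around a median of -0.33.

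Receptors for chemoattractants, which steer granulocytes and monocytes to sites of injury, rose for 6 of 10 tested genes, and none fell (median 1.99). CXCR1 and CXCR2, described above with the neutrophil genes, are among the 6. C5AR1, the receptor for complement C5a, had the smallest FDR of all genes tested. It ran from 27.7 to 62.8 CPM (median 50.5) on D55 and from 223 to 453 CPM (median 327) on D105, and the log2 fold change was 2.86 ± 0.15 (FDR 7.8e-06). The second C5a receptor, C5AR2, rose from 4.25 to 11.6 CPM (median 7.94) to 25.3 to 138 CPM (median 97.4) (3.34 ± 0.30, FDR 0.000133). PTAFR, the receptor for platelet-activating factor, rose from 44.9 to 78.7 CPM to 152 to 330 CPM (1.96 ± 0.14, FDR 5.35e-05). In these 3 genes the days did not overlap. CCR1, a chemokine receptor of monocytes and neutrophils, rose by 2.02 ± 0.31 (FDR 0.00137), with overlap.

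The interleukin-1 family and the inflammasome, the protein platform that activates interleukin-1 beta, rose for 14 of 19 tested genes, and none fell (median 1.10). IL1B, for interleukin-1 beta itself, ran from 3.998 to 35.1 CPM (median 9.96) on D55 and from 32.6 to 443 CPM (median 142) on D105 (3.60 ± 0.52, FDR 0.000914). It was higher in 8 of 8 heifers, although the days overlapped through heifers 606 and 647. On the receptor side, IL1R1, which transmits the signal, rose from 30.2 to 72.9 CPM to 61.7 to 127.7 CPM (1.04 ± 0.11, FDR 0.000203), and its accessory chain IL1RAP by 1.68 ± 0.18 (FDR 0.000178). The inhibitors rose as well, with IL1RN, the receptor antagonist, at 1.55 ± 0.21 (FDR 0.000706) and IL1R2, the decoy receptor, at 1.52 ± 0.36 (FDR 0.0144). Of the sensors, NLRP3 rose from a median of 17.8 CPM to 39.7 CPM (1.10 ± 0.17, FDR 0.00153), NLRP12 by 1.25 ± 0.19 (FDR 0.00122) and MEFV, for pyrin, by 1.91 ± 0.31 (FDR 0.00165), each in 8 of 8 heifers.

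Pattern recognition genes were split, with 6 of 24 higher and 4 lower. TLR4, the lipopolysaccharide receptor of myeloid cells, rose from 20.3 to 71.6 CPM (median 43.1) to 85.7 to 162 CPM (median 120), without overlap (1.52 ± 0.24, FDR 0.00147). NOD2, a sensor of muramyl dipeptide, and the adaptor MYD88 rose by 0.80 ± 0.09 (FDR 0.000216) and 0.70 ± 0.12 (FDR 0.00202). TLR10, which is largely a B cell receptor, fell by 0.60 (FDR 0.013), and TICAM1, the adaptor of TLR3 and TLR4 known as TRIF, by 0.53 (FDR 0.00123). In the NF-kappaB list 2 of 17 genes rose (11.8%), a share near the 10.2% of all genes tested. NFKBIZ, an inducible co-activator of interleukin-6 and lipocalin genes, led with 1.26 ± 0.24 (FDR 0.00477).

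Interferon-stimulated genes rose for 19 of 33 tested and fell for 1 (median 0.52). The IFIT genes, which restrict viral RNA, moved most. IFIT3 ran from 10.03 to 33.1 CPM (median 17.9) on D55 and from 47.0 to 450 CPM (median 185) on D105, without overlap (3.22 ± 0.36, FDR 0.000216). IFIT2 ran from 17.5 to 36.4 CPM to 42.0 to 509 CPM (2.66 ± 0.34, FDR 0.000471). ISG15, the ubiquitin-like protein used as a blood marker of early pregnancy in cattle, rose from 5.22 to 15.4 CPM (median 7.62) to 16.6 to 115.5 CPM (median 41.0), again without overlap (2.21 ± 0.24, FDR 0.000208). ISG20, an RNA exonuclease, rose by 2.16 ± 0.23 (FDR 0.000201). Other classic members of the response were not called, or were called with FDRs nearer the threshold. MX1 had medians of 287 CPM and 322 CPM (0.04 ± 0.12, FDR 0.873). MX2 was called (0.79 ± 0.24, FDR 0.0422) in 5 of 8 heifers, and its FDR reached 0.105 with 1 heifer left out, with the call lost without 533, 546, 606, 609 or 648. OAS1X rose by 0.89 ± 0.22 (FDR 0.0173) in 7 of 8. The fall was CXCL10, a chemokine induced by interferon gamma, from a median of 19.5 CPM to 12.6 CPM (-0.66 ± 0.18, FDR 0.031), not called without 590 or 647 (FDR up to 0.0705). With heifer 648 left out, or without the heifer block, 12 genes of the list were called higher.

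Cytokine receptors and their JAK-STAT signalling genes rose for 17 of 30 tested, with a median of 0.39, and none fell. IFNGR1, a chain of the interferon gamma receptor, rose from 157 to 252 CPM (median 187) to 247 to 450 CPM (median 310) in 8 of 8 heifers (0.73 ± 0.07, FDR 0.000166). IFNAR2, of the receptor for type I interferons, rose from 73.3 to 88.2 CPM to 91.2 to 180 CPM, without overlap (0.74 ± 0.10, FDR 0.00063). CSF2RA, for the receptor of granulocyte-macrophage colony-stimulating factor, rose by 0.77 ± 0.11 (FDR 0.000857), STAT3 by 0.42 ± 0.07 (FDR 0.00173) and its feedback inhibitor SOCS3 by 1.28 ± 0.24 (FDR 0.00434).

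Eicosanoid genes, which make and break down lipid mediators of inflammation, rose for 6 of 19 and fell for 1 (median 0.41). ALOX5AP, the activating protein of 5-lipoxygenase, ran from 5.01 to 17.7 CPM on D55 and from 19.7 to 69.6 CPM on D105, without overlap (1.63 ± 0.26, FDR 0.00163). The lipoxygenase ALOX5 rose by 2.76 ± 0.35 (FDR 0.0004) and HPGD, which inactivates prostaglandins, by 2.87 ± 0.36 (FDR 0.000422), both from low levels. Among 18 adhesion genes 4 rose. ICAM3, a ligand for beta2 integrins on resting leukocytes, rose from 63.9 to 115.9 CPM to 118.8 to 191 CPM without overlap (1.05 ± 0.10, FDR 0.000133), and SELPLG, the selectin ligand, by 0.82 ± 0.16 (FDR 0.00453). The integrin chain ITGAM, for CD11b, was not called, with medians of 126.7 CPM and 125.2 CPM (-0.07 ± 0.11, FDR 0.691). In the list of phagocyte oxidase, Fc and complement receptor genes 4 of 15 rose and none fell. FCAR, the IgA receptor, rose by 3.05 ± 0.34 (FDR 0.000225) and the oxidase subunit NCF1 by 1.30 ± 0.22 (FDR 0.00244), whereas the catalytic subunit CYBB had medians of 463 CPM and 482 CPM (-0.02 ± 0.11, FDR 0.909).

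Genes that respond to glucocorticoids, hormones that hold neutrophils in the blood, rose for 10 of 20 and fell for 1 (median 0.50). The rises numbered 7 without 533, 546, 647 or 648 and 5 without the heifer block. No gene fell without 533, 590, 647 or 648, and 2 fell without 546. ANXA1, an anti-inflammatory annexin abundant in neutrophils, rose from 120.5 to 298 CPM (median 190) to 280 to 766 CPM (median 428) in 8 of 8 heifers (1.16 ± 0.16, FDR 0.000696). TSC22D3, known as GILZ, rose by 0.61 ± 0.13 (FDR 0.00777) and the kinase SGK1 by 1.77 ± 0.39 (FDR 0.00973). FKBP5, a chaperone of the glucocorticoid receptor, was called (1.02 ± 0.30, FDR 0.0395), but its FDR reached 0.0832 with 1 heifer left out, with the call lost without 533, 546, 647 or 648. PER1, a clock gene that glucocorticoids also induce, was not called (0.46 ± 0.25, FDR 0.229). Of 18 clock genes 3 rose (1 without 609 or 647) and 1 fell (none without 533, 546, 590, 647 or 648, 3 without 609). These were 16.7% and 5.56% of the list, against 10.2% and 6.89% of all genes tested. NFIL3, a clock output gene that also regulates lymphoid cells, led the clock genes with 2.30 ± 0.31 (FDR 0.000584), at 8.004 to 34.9 CPM on D55 and 38.8 to 100.6 CPM on D105. Of 13 myeloid transcription factors 6 rose and 1 fell, among them NFE2 (2.07 ± 0.29, FDR 0.00073), BCL6 (1.72 ± 0.22, FDR 0.000503) and the granulocyte factor CEBPE (1.39 ± 0.24, FDR 0.00231).

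Immediate early genes, which also respond to the handling of blood, rose for 10 of 23 and fell for 2 (median 0.54). DUSP2, a phosphatase of activated leukocytes, ran from 36.2 to 120 CPM (median 84.5) on D55 and from 177 to 1084 CPM (median 397) on D105 (2.59 ± 0.40, FDR 0.00136). CXCL8, for interleukin-8, rose from 3.64 to 22.5 CPM to 24.9 to 103.95 CPM (2.26 ± 0.31, FDR 0.000706). Neither overlapped between the days. The archetypes of the class varied widely: FOS ran from 28.6 to 541 CPM on D55 and from 144 to 1587 CPM on D105 (2.36 ± 0.69, FDR 0.0369), and EGR1 from 9.01 to 192 CPM and from 88.2 to 725 CPM (2.85 ± 0.87, FDR 0.0449). Their FDR reached 0.0843 and 0.105 with 1 heifer left out, with both calls lost without 533, 590, 606, 647 or 648. JUN was not called (0.19 ± 0.35, FDR 0.751). Leaving out 590, 606 or 648 took the count of rises to 4, leaving out 533 or 647 to 5 and leaving out 546 to 6. The part of blood handling in the rises of other lists was not tested.

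Heat shock and chaperone genes fell for 10 of 23, and none rose (median -0.17). STIP1, the co-chaperone that links HSP70 and HSP90, fell from 105.2 to 126.7 CPM (median 118.1) to 76.2 to 101.3 CPM (median 93.6), without overlap (-0.36 ± 0.05, FDR 0.001). HSPH1 fell from a median of 65.0 CPM to 53.3 CPM (-0.40 ± 0.07, FDR 0.00221). With all 46 libraries in the fit, neither STIP1 (FDR 0.153) nor HSPH1 (FDR 0.372) was called. HSPA8, the constitutive HSP70, fell from 1365 to 1761 CPM to 963 to 1543 CPM in 8 of 8 heifers (-0.26 ± 0.07, FDR 0.0205), and it was not called without heifer 590 (FDR 0.0565), without the heifer block (FDR 0.0745) or with all 46 libraries in the fit (FDR 0.258). The count of falls was 6 without 609, 647 or 648, 5 without the heifer block and 1 when all 46 libraries shared a spread estimate.

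Replication-dependent histone genes, whose transcripts mostly end in a stem-loop in place of a poly(A) tail, fell for 21 of 28 tested genes and rose for 1 (median -1.01). This list was added after the values were seen. HIST3H2A fell from 4.85 to 11.5 CPM (median 7.23) to 1.26 to 2.46 CPM (median 1.80) (-1.98 ± 0.19, FDR 0.000133), and HIST1H2BN from 3.57 to 6.61 CPM (median 4.39) to 0.673 to 1.71 CPM (median 1.21) (-1.93 ± 0.16, FDR 0.000105). For 9 histone genes every D105 library lay below every D55 library. The summed level of the 40 listed genes fell in 8 of 8 heifers, from 286 to 386 CPM to 197 to 326 CPM. Cell cycle genes fell for 3 of 25 and rose for none (median -0.05), with 1 fall without 533 and none without 590, 606, 609, 647 or 648, and MKI67, the proliferation marker, had medians of 177 CPM and 150 CPM (-0.05 ± 0.11, FDR 0.808). Multi-copy histone genes are nearly identical, so reads could have been split among them or discarded.

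**Figure D3:**
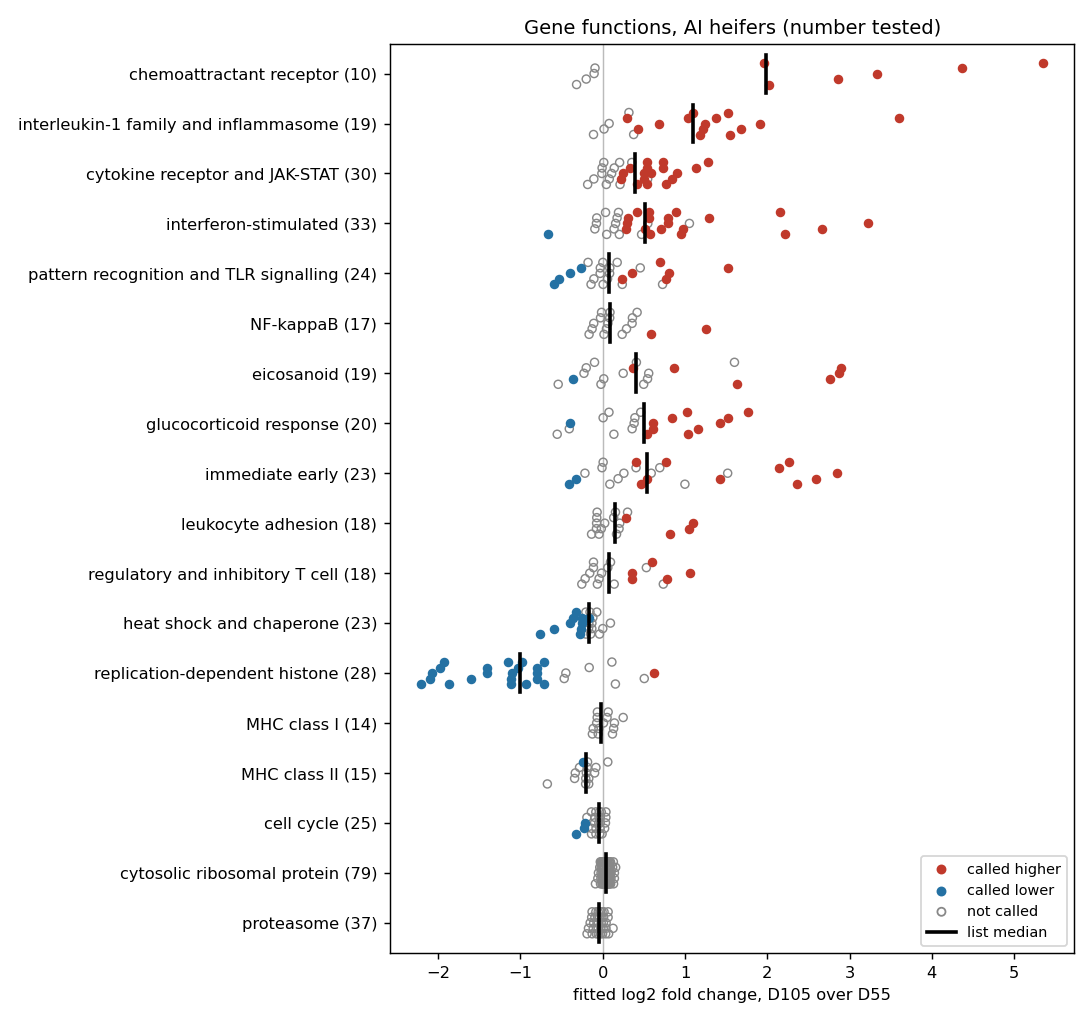
Fitted log2 fold change (D105 over D55) of each tested gene in 18 lists of gene functions, drawn as for the cell classes. Chemoattractant receptor and interleukin-1 genes reach furthest to the right, replication-dependent histone genes lie furthest to the left, and the 79 ribosomal protein genes sit close to 0 with none called.

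Lists of general cell function held few calls. None of 79 cytosolic ribosomal protein genes, 37 proteasome genes and 14 genes of MHC class I presentation was called, and their medians were 0.05, -0.04 and -0.02. Of 84 respiratory chain genes 2 rose and 1 fell, and none rose without 546, 590 or 606. Among 15 MHC class II genes 1 fell (median -0.20), against 3 without 517, 5 without 533 and none without any of 546, 590, 609, 647 and 648. BOLA-DRA, the monomorphic class II chain, had medians of 2688 CPM and 2342 CPM and was not called (-0.19 ± 0.06, FDR 0.0601), although it was called lower with upper-quartile scaling and without 517 or 533 (FDR 0.0368 to 0.151 over the heifers left out). Of 12 genes used as references in cattle blood 2 rose. One of them was GAPDH (0.21 ± 0.06, FDR 0.0319), which was not called with upper-quartile scaling or without 533, 546 or 590 (FDR up to 0.0839). The normalizers ECD, NFKBIB and VPS35L had fitted changes of 0.03, 0.06 and 0.08, and none was called.

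Among called genes with a mean of at least 1 CPM and the same direction in 8 of 8 heifers, the 10 with the largest fitted rises were SERPINB4, PTX3, TGM3, SLC28A3, CXCR1, TCN1, ALPL, STEAP4, SDS and MS4A2. SDS, a serine dehydratase known from liver amino acid catabolism, became abundant, from 18.6 to 384 CPM (median 66.5) on D55 to 603 to 4959 CPM (median 2857) on D105 (5.07 ± 0.66, FDR 0.000492). TGM3, a transglutaminase, ran from 0.626 to 27.4 CPM (median 3.53) to 69.2 to 652 CPM (median 322) (5.99 ± 0.75, FDR 0.000409). PTX3, a soluble pattern recognition molecule stored in neutrophil granules, ran from 0 to 0.382 CPM to 3.23 to 41.4 CPM (6.31 ± 0.36, FDR 1.1e-05). TCN1, the vitamin B12 binder of secondary granules, rose by 5.34 ± 0.51 (FDR 0.000133), and ALPL, the alkaline phosphatase of neutrophils, by 5.24 ± 0.53 (FDR 0.000158). PTX3, ALPL and MS4A2 averaged under 0.436 CPM on D55, with at most 9, 18 and 6 reads in any D55 library. They passed the expression filter through D105, and their folds and ranks are imprecise. STEAP4, a metalloreductase, rose by 5.08 ± 0.53 (FDR 0.000176) and SLC28A3, a nucleoside transporter, by 5.48 ± 0.45 (FDR 9.21e-05). SERPINB4 had at most 2 reads in any D55 library and 901 reads over the 8 D105 libraries, and LOC107131579, the third by FDR among the rises, at most 3 and 418, so no fold is given for them. None of these 10 genes overlapped between the days.

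By the same rule, the 10 largest falls comprised 8 histone genes, MIR3064 and PRDM16. MIR3064, a microRNA gene, fell from 10.95 to 32.3 CPM (median 25.8) to 6.33 to 10.02 CPM (median 8.47) (-1.49 ± 0.16, FDR 0.000201). Counts at a microRNA locus in this kind of library come from longer transcripts that cross it and not from the mature microRNA. PRDM16, a transcription factor with a histone methyltransferase domain, fell from a median of 10.3 CPM to 3.66 CPM (-1.43 ± 0.27, FDR 0.00433). HIST1H2AM (-2.21 ± 0.27, FDR 0.000319), HIST2H2BF (-2.10 ± 0.24, FDR 0.000248) and HIST1H2BM (-2.07 ± 0.22, FDR 0.000201) fell at least 4-fold. FAM43A, the third by FDR among the falls, fell in 8 of 8 heifers from a median of 59.8 CPM to 33.1 CPM (-0.75 ± 0.07, FDR 0.000133). Genes with a LOC symbol made up 312 of the rises (20.1%) and 203 of the falls (19.3%), against 17.1% of all genes tested.

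The size of the change differed between heifers more than its direction. Within heifers, the median change of the neutrophil surface list, as log2(CPM + 0.5) on D105 minus D55, ran from 1.06 in heifer 647 to 3.13 in heifer 590. For the interleukin-1 list it ran from 0.20 in 647 to 1.19 in 648, and for the 3 IFIT genes from 0.28 in 647 to 3.90 in 609. Heifer 647 was thus lowest in all 3, and it was also lowest for chemoattractant receptors (0.86) and granule genes (0.27). The chemoattractant receptors include CXCR1 and CXCR2, so these lists are not separate from the neutrophil genes. B cell genes ranged from -0.94 in 546 to 0.09 in 533. Heifer 533 had the largest fall of gamma chain constant genes (-1.51) and of platelet genes (-1.52). Histone genes were lower on D105 in each heifer, with medians from -1.33 to -0.57.

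**Figure D4:**
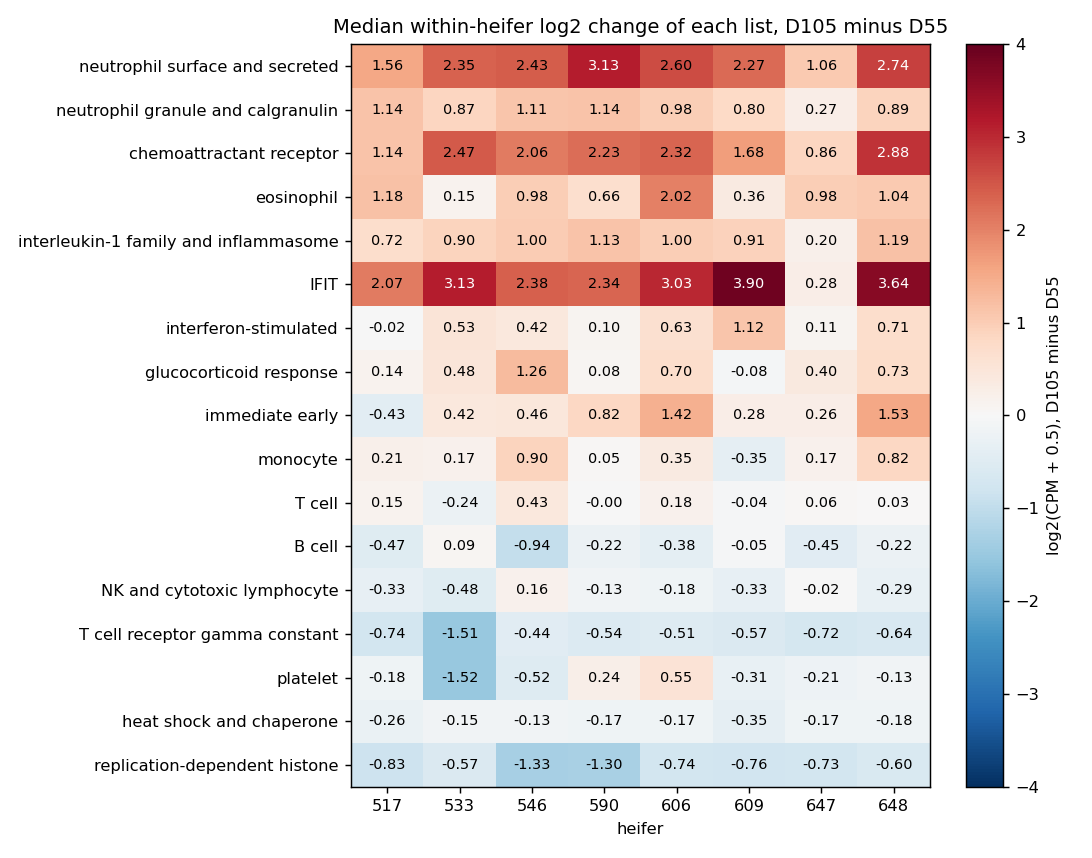
Median within-heifer change of 17 gene lists, in log2(CPM + 0.5) on D105 minus D55, with 1 column per heifer and the value in each cell. Neutrophil surface genes are higher on D105 in every heifer, from 1.06 to 3.13, histone and heat shock genes are lower in every heifer, and heifer 647 is lowest in the neutrophil surface, granule, chemoattractant receptor, interleukin-1 and IFIT lists.

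The other treatment groups have no library in common with the AI heifers and were set beside them. In IVP-Normal heifers both days belong to the set labelled New, and 684 of 15248 genes rose (4.49%) and 154 fell (1.01%). Of the AI rises 1523 were tested there, and 98.0% had the same direction, against 69.3% of the 15010 genes tested in both. The overlap of called rises was 626 genes, which is 40.3% of the AI list and 91.5% of the IVP-Normal list. For falls, 92.9% had the same direction, and 95 genes were shared, 9.04% of the AI list and 61.7% of the IVP-Normal list. No gene was called in opposite directions. All 13 neutrophil surface genes rose in IVP-Normal heifers (median 2.17), as did 11 of 19 interleukin-1 genes, and 16 of 28 histone genes fell (median -1.02). Of 23 heat shock genes 0 were called by edgeR in IVP-Normal heifers, with a median of 0.07. C5AR1 changed by 3.17 in IVP-Normal and 2.86 in AI heifers, ISG15 by 2.51 and 2.21, and STAT2, an interferon signalling factor, by 0.00 (FDR 0.999) and 1.29 (FDR 0.0213). The STAT2 call in AI heifers was lost without 648 (FDR 0.0521).

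In IVP-LOS heifers, whose libraries carry the same set names as the AI group, fewer genes were called. Of 15163 genes tested 0.778% rose and 0.29% fell. Among AI rises tested in IVP-LOS heifers, 90.1% had the same direction, against 64.4% of the 14983 genes tested in both. Their median log2 fold change was 0.26 in IVP-LOS heifers and 0.63 in AI heifers, in which they were selected. Called rises shared by both were 6.70% of the AI list and 88.1% of the IVP-LOS list, and shared falls were 30 genes, or 2.85% and 68.2%. Neutrophil surface genes had a median of 1.54 with none of 13 called by edgeR, and interleukin-1 genes a median of 0.11 with 1 of 19 called. S100A9 changed by 0.00 (FDR 0.999) and NLRP3 by 0.09 (FDR 0.882) in IVP-LOS heifers. S100A9 spread widely there, from 78.8 to 275 CPM (median 162) on D55 and from 24.3 to 3153 CPM (median 188) on D105. C5AR1 (2.39, FDR 0.0125), TGM3 (4.97, FDR 0.0301) and SDS (4.42, FDR 0.0361) were called higher in IVP-LOS heifers. CXCR1 (3.68, FDR 0.0625) and TCN1 (3.94, FDR 0.0664) were not called.

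The difference in day change between groups was tested directly by an interaction term. Between AI and IVP-Normal heifers, edgeR called 0 of 16096 genes (0%), with 1003 at an unadjusted p under 0.05, and DESeq2 called 1, SHISA8, named here after its value was seen. Between AI and IVP-LOS heifers, edgeR and DESeq2 called 0 of 16018 genes (0%), with 1674 at an unadjusted p under 0.05 in edgeR. A change called in AI heifers and not in another group is therefore not shown to differ between them.

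**Figure D5:**
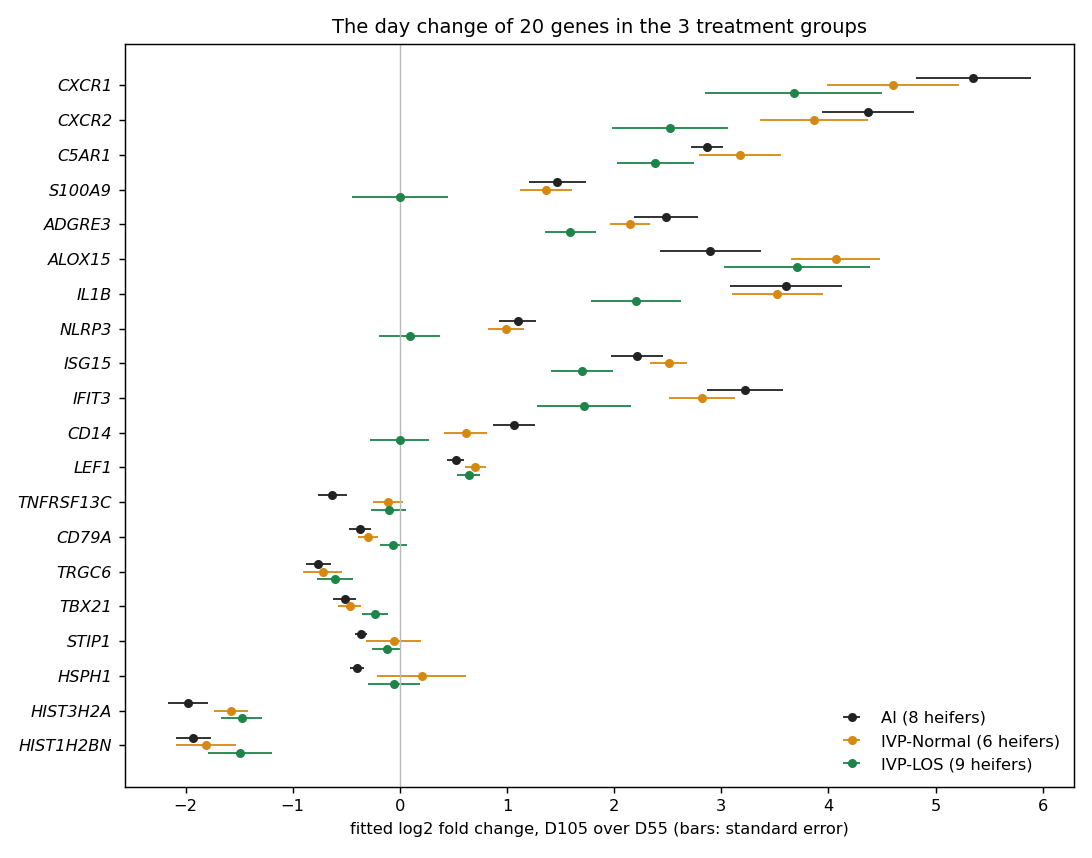
Fitted log2 fold change (D105 over D55) of 20 genes in AI, IVP-Normal and IVP-LOS heifers, with bars of 1 standard error. AI and IVP-Normal points lie close for most genes, such as IL1B at 3.60 and 3.52, and IVP-LOS points lie nearer 0 for many, such as S100A9 at 0.00. In IVP-LOS heifers S100A9 ran from 24.3 to 3153 CPM on D105.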

How the data were processed

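Leukocyte RNA of 8 AI heifers was sequenced on D55 and D105, and 15 IVP heifers of the series served for comparison. According to the submitters' notes and the study's methods, the authors aligned reads with HISAT2 2.1.0 to ARS-UCD1.2 and deposited HTSeq read counts per gene in 2 tables, 1 for NCBI and 1 for Ensembl genes; annotation releases and the strand setting are not given in the sources used here, so antisense partners, overlapping genes and close paralogs cannot be told apart. The NCBI table was used as deposited. Lines that name no gene were left out of totals, and their shares are given in the report. Ensembl identifiers served as an alternative and were not named, since the reference table used here pairs none with a symbol.

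Counts were analysed in R 4.3.3 with edgeR 4.0.16 (filterByExpr with a minimum count of 10, TMM scaling, quasi-likelihood test, Benjamini-Hochberg FDR of at most 0.05), with heifer as a block, on the 16 AI libraries alone. Both libraries of a heifer number came from the same animal. Deviations of the 2 libraries of a heifer from their group means correlated at 0.39 to 0.594 (mean 0.516), against -0.0737 between different heifers. The value between heifers follows largely from centring on the group means and is no separate check. The pairing rests on the heifer numbers and the correlations within heifers. Changes are log2 fold changes with the fit's standard error. CPM are edgeR's TMM-scaled values. Within-heifer changes used log2(CPM + 0.5). The interaction of day and treatment was fitted with heifer as a block. Alternatives were the fit without the block, edgeR's likelihood ratio test, DESeq2 1.42.0, the calls of both, upper-quartile and median-of-ratios scaling, no expression filter, all 46 libraries, 1 factor of unwanted variation, the Ensembl table and each heifer left out. On simulated counts for this comparison (15248 genes), edgeR called 66%, 92%, 100% and 100% of 50 genes each changed by 0.5, 1, 2 and 4 on the log2 scale, with 10 false calls, and DESeq2 made 25 false calls. Counts were drawn with a spread that followed expression level alone and without outlying heifers, so these figures need not hold for the libraries themselves.

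The heifers and gene lists were chosen with earlier results of these data known, and the histone, gamma chain and IFIT lists after the values were seen. Genes were named by rule: the 10 largest rises and falls among called genes with a symbol, a mean of at least 1 CPM and the same direction in 8 of 8 heifers, the 3 smallest FDRs in each direction, and up to 6 members of each list by FDR together with those that define it. The p-values rest on 8 separate heifers. No promoter or protein sequence was used here. Some genes that this rule names are not reported here.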

Additional observations from a re-analysis of the deposited data

Results flagged for a closer look

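In each group of 8 within-heifer changes, log2(CPM + 0.5) on D105 minus D55, the heifer farthest out was compared with its neighbour by Dixon's criterion, with a critical value of 0.526. Of 138 values examined, 16 had a heifer past it, and chance marks about 1 group in 20. No explanation was tested for any of them.

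Heifer 647 stood below the others for 5 genes of the granulocyte, dendritic cell and interferon lists. STEAP4 changed by 1.34 in 647 and by 4.20 to 6.22 in the other 7 heifers. CXCR2 changed by 1.29, against 3.86 to 5.47. FCAR changed by 0.79, against 2.52 to 3.57, and IFIT3 by 0.63, against 2.40 to 4.004. XCR1 was the gene in which 647 moved the other way, at -0.10 against 1.04 to 1.52.

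Heifer 590 stood above the others for 3 granulocyte genes. MMP9 changed by 5.48, against 2.04 to 3.58, S100A9 by 3.51, against 0.27 to 1.53, and ALOX5AP by 3.67, against 0.71 to 1.90.

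Heifer 533 stood out in T cell receptor and platelet genes. TRGC4 changed by -1.49, against -0.83 to -0.26, TRGC6 by -1.61, against -0.76 to -0.44, and PF4 by -1.99, against -0.68 to 0.46. TICAM1 barely moved in 533, at -0.086, against -0.71 to -0.44.

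Heifer 546 had the largest fall of 2 genes that B cells express, MS4A1 at -0.94, against -0.37 to 0.14, and TCF4 at -1.06, against -0.38 to -0.06. Its share of reads on no gene changed by -3.20 percentage points, while the other 7 heifers changed by 0.0674 to 2.99. MIR3064 fell least in heifer 517, at -0.27 against -1.98 to -1.26.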

How the results depend on the processing

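The heifer block carried much of the count of calls. Without the replicate block, 1517 genes were called in AI heifers and not 2603, with 1100 rises and 417 falls, and 23 named genes that were called with pairing were no longer called. In IVP-Normal heifers the count went from 838 to 374 and in IVP-LOS heifers from 162 to 38. With 1 factor of unwanted variation 3938 AI genes were called, 1844 of them lower. Falls numbered 1620 with upper-quartile scaling, 609 in the Ensembl table and 632 (without 648) to 1102 (without 517) with 1 heifer left out, with 668 without 546 and 663 without 647, against 1051. The cause of these shifts was not tested. In the other fits the AI total ran from 1837 (without 648) to 3045 (edgeR's likelihood ratio test). In IVP-LOS heifers DESeq2 called 691 genes and edgeR without an expression filter 271. For the difference in day change between AI and IVP-Normal heifers, 1 gene was called by DESeq2 and 0 by edgeR. The change in the share of reads on no gene, 0.465 percentage points, ran from 0.105 without 609 to 0.989 without 546 (exact paired permutation p = 0.0156), and without pairing its exact permutation p was 0.536. No named gene changed direction while called. Of 137 named genes tested, 11 lost their call in at least 1 of the fits with a heifer left out. MPO, not among the 11, was tested in only 6 of those fits. With all 46 libraries in the fit, 9 named genes lost their call. They were NKG7, OAS1X, MX2, FOXP3, FKBP5, GAPDH, STIP1, HSPH1 and HSPA8. Counts of 1 or 2 genes in a list often depended on a single heifer. Genes averaging under 0.436 CPM on D55, the level of 10 reads, could hold more in single libraries, such as 18 for ALPL. Their folds are imprecise.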

Other observations

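A few lists outside the groups described above held calls of small size. Among receptors for hormones of pregnancy and growth, 3 of 14 tested genes rose in AI heifers and none fell. IGF2R, which clears insulin-like growth factor 2, rose by 0.32 ± 0.07 (edgeR FDR 0.00848). IGF1R, the signalling receptor for insulin-like growth factors, rose by 0.81 ± 0.25 (FDR 0.0433) and VDR, the vitamin D receptor, by 0.45 ± 0.14 (FDR 0.041). The count was 1 without 533, 546, 590, 606 or 648.

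Of 28 genes of SR proteins and nuclear speckles, which handle splicing, 3 fell and none rose, or 2 without 648. The falls were 10.7% of the list, against 6.89% of all genes tested. RSRP1, an arginine and serine rich nuclear protein, fell by 0.60 (FDR 0.00186), CLK1, a kinase that phosphorylates SR proteins, by 0.52 (FDR 0.00306) and the splicing regulator TRA2B by 0.21 (FDR 0.0155).

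Among 35 genes of the V-type ATPase, the proton pump of acid compartments, and of lysosomes, 5 rose and 2 fell. These shares, 14.3% and 5.71%, were near the 10.2% and 6.89% of all genes tested. CD63, a tetraspanin of late endosomes, rose by 0.33 ± 0.08 (FDR 0.0127), and CTSZ, for cathepsin Z, fell by 0.33 (FDR 0.0366). Without 517, 546, 590 or 648 the rises numbered 3, and without 533, 546, 609, 647 or 648 the falls numbered 1. In the plasma cell list, 1 of 6 tested genes was called, IRF4, a transcription factor of plasma cells and activated lymphocytes, which fell by 0.21 (FDR 0.0208) and was not called without 533 or 648.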
